A study of Mus musculus with 48 samples.

Results

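Hemoglobin is the oxygen carrier of the red cell, a tetramer of 2 alpha chains and 2 beta chains that each hold a heme group. In the adult mouse the alpha chains come from Hba-a1 and Hba-a2 and the beta chains from Hbb-bs and Hbb-bt, pairs of neighbouring copies that are transcribed in maturing red cells. Alas2 encodes the erythroid form of 5-aminolevulinate synthase, which starts heme synthesis in those cells. Circulating red cells have no nucleus, although the youngest of them, the reticulocytes, still carry globin RNA, and brain cells have been described as carrying low levels of the same transcripts. The genes described here are these 5 of the 48526 in the count table, found by matching the Ensembl identifiers of the table to the gene symbols of the mouse GENCODE annotation.

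The libraries came from the cerebral cortex of 12 male wild-type C57BL/6JRj mice, 4 mice at 3 weeks (3w), 4 at 5 months (5m) and 4 at 18 months (18m), and no agent, transgene or deleted allele is given for any group. The titles call the middle group 6 months old while the protocol gives 5 months, and the protocol gives the oldest group as 18 or 19 months. Each mouse gave 4 RNA-seq libraries, from the total homogenate (TH) or from synaptosomes (SYN, pinched-off nerve terminals collected from a sucrose gradient), each taken either directly (input) or after pelleting ribosomes through a sucrose cushion (SC). The mice were killed by cervical dislocation, and the protocols mention no washing out of blood, so input_TH is whole cortical tissue with whatever blood its vessels held. In such bulk libraries fewer cells of a type and less RNA per cell cannot be told apart.

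Counted reads per library ran from 9699909 to 13225435 in input_TH, from 3058278 to 15423546 in SC_TH, from 1780267 to 7879536 in input_SYN and from 5341263 to 18590040 in SC_SYN. The SC_TH libraries of the 3w mice were the shallowest of that fraction, with a median of 4448523 reads against 8643431 at 5m and 12328632 at 18m. Levels are given in CPM, the reads of a gene per 1000000 counted reads of its library. Across 8 neuronal markers the summed level in input_TH was 6194 to 7233 CPM, against which the 5 hemoglobin and heme genes together gave 178 to 624 CPM. Nothing in the labels says whether the 4 mice of an age were littermates. The p-values of age changes within a fraction measure the spread between mice. Where fractions are compared, 2 libraries of each mouse entered a fit as if independent, except where pairing is stated.

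In the mouse genome build GRCm38, Hbb-bs (ENSMUSG00000052305) lies on the minus strand of chromosome 7 at 103826534 to 103828096, and Hbb-bt (ENSMUSG00000073940) lies beside it on the same strand at 103812524 to 103813996. Hba-a1 (ENSMUSG00000069919) lies on the plus strand of chromosome 11 at 32283511 to 32284465, with Hba-a2 (ENSMUSG00000069917) downstream at 32296489 to 32297298. Alas2 (ENSMUSG00000025270) lies on the plus strand of the X chromosome at 150547375 to 150570638. All are protein-coding genes, and the counts cover their exons. The 2 copies of each globin are nearly the same sequence, which matters for every value below because reads that fall on a shared stretch cannot be assigned to a copy. The coding sequences of Hba-a1 and Hba-a2 differ at 1 of 426 bases, C381T with the base of Hba-a1 first, and those of Hbb-bs and Hbb-bt at 1 of 441, C417T with the base of Hbb-bs first, counted from the A of the start codon. Both changes fall on the last base of a codon, 127 and 139 respectively. The 60 coding bases around each change are shown 5′ to 3′ from the reference genome, with the differing base in capitals.
Hbb-bs: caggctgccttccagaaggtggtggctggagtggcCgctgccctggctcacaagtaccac
Hbb-bt: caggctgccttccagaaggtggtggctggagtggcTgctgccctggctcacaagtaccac
Hba-a1: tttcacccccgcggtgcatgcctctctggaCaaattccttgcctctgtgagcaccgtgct
Hba-a2: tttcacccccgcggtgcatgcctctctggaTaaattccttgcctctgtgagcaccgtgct

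Of all stretches of the length of a sequencing read in the transcript, 56.3% of those of Hba-a1 and 74.2% of those of Hba-a2 occurred letter for letter in the other alpha copy, and 62.5% of those of Hbb-bs and 54.7% of those of Hbb-bt occurred in the other beta copy. How reads that fit both copies were counted is not given in the sources used here, so the split within a pair is uncertain, and sums over a pair are given where they matter.

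Upstream of their start sites the alpha copies were also alike, with the 247 bases compared identical, while the beta copies matched at 51.0% of 249 bases and Hba-a1 and Hbb-bs at 32.1% of 243 when aligned without gaps. Because the 5 genes are compared as a group below, their upstream letters were searched, on both strands of the 250 bases before the RefSeq start on GRCm38.p6, for GATAA (core letters of sites of GATA factors), for CACCC (factors of the Krüppel family), for CCAAT (the factors named after it) and for ATATAA (the TATA box). The first and the second of these letter groups were found upstream of all 5 genes, the others upstream of the 4 globin genes and not in the Alas2 window. Of 32851 mouse promoters of that length, GATAA occurred in 22.6%, CACCC in 52.0%, both together in 10.1%, CCAAT in 33.8% and ATATAA in 9.1%. The stretch shared by the alpha copies is shown at its Hba-a2 position, chr11:32296242-32296488 on the plus strand, followed by 30 bases of Hbb-bs (chr7:103827989-103828018, minus strand), of Hbb-bt (chr7:103813983-103814012, minus strand) and of Alas2 (chrX:150547367-150547396, plus strand). The GENCODE bounds of the genes given above reach past the RefSeq starts used here, so the stretch of Hbb-bs lies inside the bounds of its gene, and those of Hbb-bt and Alas2 lie partly inside. Capitals mark the searched letters, including ATTGG, which is CCAAT read on the opposite strand, and GGGTG, which is CACCC read on it, and a match is a description of the letters only.
Hba-a2: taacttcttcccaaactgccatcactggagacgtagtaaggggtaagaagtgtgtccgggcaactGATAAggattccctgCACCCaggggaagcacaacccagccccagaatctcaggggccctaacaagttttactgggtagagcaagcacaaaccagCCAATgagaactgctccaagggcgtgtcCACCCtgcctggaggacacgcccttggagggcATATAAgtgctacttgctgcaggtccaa
Hbb-bs: CACCCtggtaagggCCAATctgctcacaca
Hbb-bt: CACCCtggcATTGGCCAATctgctcagaga
Alas2: aggcggaaggGGGTGGGGTGGGGTGggcgg

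The 4 globin genes together took 0.0176% to 0.0618% of the counted reads of an input_TH library and 0.0287% to 0.0742% of an SC_TH library. In synaptosomes the share was 0.00178% to 0.00489% in input_SYN and 0.00169% to 0.00624% in SC_SYN. Per kilobase of exon, the levels in input_TH at 3w were 245 CPM per kb for Hba-a2, 229 for Hbb-bs, 206 for Hba-a1, 88.2 for Hbb-bt and 2.09 for Alas2. The ranges over mice of Hba-a2, Hbb-bs and Hba-a1 overlapped, while Hbb-bt and Alas2 lay below them. In SC_TH at 3w the order per kilobase was different, with Hbb-bs at 347 CPM per kb, Hbb-bt at 198, Hba-a2 at 187, Hba-a1 at 169 and Alas2 at 1.44.

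The first comparison asked how the level of each gene changed with age within a fraction. In the total homogenate, the 4 globin genes and Alas2 were lower at 5m than at 3w. The globin genes were 2.05-fold to 2.13-fold lower and Alas2 was 1.69-fold lower, so that 5 of 5 passed the test. Of all 18078 genes tested, 7.05% were lower at 5m by the same rule (edgeR quasi-likelihood test, Benjamini-Hochberg adjusted p under 0.05), and the median log2 fold change was -1.05 over the 5 genes against 0.01 over all genes.

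Hbb-bs, the more abundant beta gene, stood in input_TH at 178, 139.7, 191 and 194 CPM in the 3w mice 187 to 190, at 119.8, 89.1, 86.7 and 51.55 CPM in the 5m mice 191 to 194 and at 73.3, 88.8, 123 and 141 CPM in the 18m mice 195 to 198. Every 3w mouse was above every 5m mouse. At 18m mice 195 and 196 stood within the 5m range, mouse 197 above it and mouse 198 just above the lowest 3w mouse. The log2 fold change from 3w to 5m was -1.07 ± 0.21 (SE, 4 mice a group, adjusted p = 0.0025). Hbb-bt, the less abundant beta gene, stood at 61.0, 50.8, 67.3 and 68.9 CPM at 3w, at 43.3, 33.6, 31.2 and 17.2 CPM at 5m and at 27.65, 31.7, 45 and 50.05 CPM at 18m. As for Hbb-bs, mouse 191 was the highest and mouse 194 the lowest of the 5m mice, and the 3w and 5m mice did not overlap. Its log2 fold change from 3w to 5m was -1.04 ± 0.21 (SE, adjusted p = 0.0031).

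Hba-a1, the first of the alpha copies, stood in input_TH at 169, 139.5, 180.4 and 178 CPM at 3w, at 113.5, 88.15, 79.5 and 53.6 CPM at 5m and at 73.2, 94.6, 119.6 and 133 CPM at 18m. Hba-a2, its neighbour, stood at 160.4, 137.5, 179 and 175 CPM at 3w, at 105, 84.3, 74.6 and 53.7 CPM at 5m and at 71.7, 89.6, 122 and 126 CPM at 18m. The alpha copies ranked the mice of each age as each other and nearly as the beta genes did, and the 3w mice again lay wholly above the 5m mice. The log2 fold change from 3w to 5m was -1.05 ± 0.18 for Hba-a1 (SE, adjusted p = 0.0012). For Hba-a2 it was -1.09 ± 0.18 (SE, adjusted p = 0.00058).

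Alas2, the heme synthesis enzyme, was present at far lower levels, at 5.29, 3.16, 5.597 and 6.07 CPM at 3w, at 3.50, 3.09, 3.53 and 2.20 CPM at 5m and at 2.22, 1.69, 2.60 and 3.015 CPM at 18m. These levels rest on 32 to 70 counts per 3w library, 25 to 42 per 5m library and 17 to 35 per 18m library. Mouse 188 lay within the 5m range, so that the 2 ages overlapped. From 3w to 5m its log2 fold change was -0.76 ± 0.21 (SE, adjusted p = 0.029). This call was lost without mouse 187, 189, 190, 192 or 194 and in a fit of all 48 libraries together, with adjusted p-values up to 0.11.

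**Figure D1:**
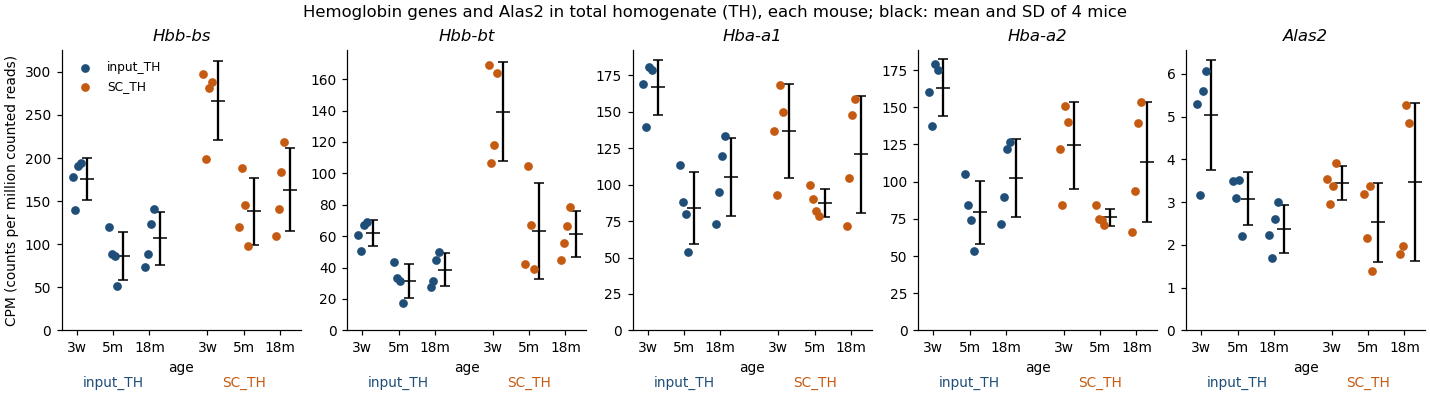
Level of each of the 5 genes (CPM, linear axis starting at 0) in every mouse at 3w, 5m and 18m, in input_TH and in SC_TH. Points are mice, and the black marks are means with SD over 4 mice. In input_TH the 3w points of the 4 globin genes sit above all 5m points, and the 18m points overlap the 5m points.

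In the ribosome pellet of the homogenate (SC_TH), 4 of the 5 genes were lower at 5m than at 3w, where 8.47% of all genes tested were lower. Hbb-bs stood at 298, 198, 282 and 288 CPM at 3w, at 120.1, 189, 146 and 98.4 CPM at 5m and at 109, 141, 184 and 219 CPM at 18m. Hbb-bt stood at 169, 106, 118 and 164 CPM at 3w, at 42.05, 105, 67.2 and 39.4 CPM at 5m and at 44.6, 55.35, 66.7 and 78.7 CPM at 18m. For both beta genes the highest 5m mouse, 192, came close to the lowest 3w mouse, 188, without reaching it. The log2 fold change from 3w to 5m was -0.93 ± 0.20 for Hbb-bs (SE, adjusted p = 0.0051). Hbb-bt gave -1.13 ± 0.25 (SE, adjusted p = 0.0063).

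The fold changes of the alpha genes in the pellet were smaller, and their difference from the beta genes was not tested. Hba-a1 stood there at 137, 92.6, 168 and 150.1 CPM at 3w, at 99.5, 90.3, 81.6 and 78.6 CPM at 5m and at 71.35, 105, 148 and 159 CPM at 18m. Hba-a2 stood at 122, 84.4, 151 and 140.3 CPM at 3w, at 84.0, 74.8, 74.1 and 70.8 CPM at 5m and at 66.2, 93.6, 139.5 and 153 CPM at 18m. Mouse 188 overlapped the 5m mice for Hba-a1 and lay just above them for Hba-a2. At 18m every mouse but the lowest, mouse 195, stood within the 3w range for Hba-a1. For Hba-a2 mouse 195 lay below the 3w range, mouse 198 just above it and the others within it. From 3w to 5m the log2 fold change was -0.62 ± 0.20 for Hba-a1 (SE, adjusted p = 0.040) and -0.69 ± 0.21 for Hba-a2 (SE, adjusted p = 0.029). Both calls were lost with DESeq2 and without mouse 187, 189, 190, 193 or 194, which left 2 of the 5 genes called, and that of Hba-a1 also in the fit of all 48 libraries, with adjusted p-values up to 0.095 and 0.071.

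Alas2 in SC_TH stood at 3.55, 2.96, 3.37 and 3.92 CPM at 3w, at 3.19, 2.17, 3.37 and 1.38 CPM at 5m and at 1.79, 1.98, 5.27 and 4.86 CPM at 18m, from 12 to 75 counts a library. The 3 ages overlapped, and at 18m mice 197 and 198 stood apart from mice 195 and 196. Its log2 fold change from 3w to 5m was -0.37 ± 0.38 (SE, adjusted p = 0.53).

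Other RNAs also moved between 3w and 5m in this fraction. Of the 12 endothelial markers tested, 6 were lower at 5m, where 8.47% of all genes were lower. Their summed level was 195 to 241 CPM at 3w and 138.5 to 193 CPM at 5m. For the 8 choroid plexus markers, of which 5 were lower, the sum was 424 to 1224 CPM at 3w and 25.2 to 480.3 CPM at 5m. In input_TH the same 2 sums overlapped between the ages, at 298 to 343 and 298 to 465 CPM for the endothelial markers and at 164 to 697 and 51.6 to 1138 CPM for the choroid plexus markers. There 1 endothelial marker was higher and none lower, where 861 of all 18078 genes were higher and 1275 lower. For the choroid plexus markers in input_TH, 0 of 6 passed the test by edgeR, at an unadjusted p under 0.05 or by DESeq2. Mouse 191 stood highest of the 5m mice in input_TH for the endothelial, the mural and the choroid plexus sums and for all 4 globin genes. Mouse 195 had the highest choroid plexus sum of all, 1714 CPM, and the lowest globin levels of its age. The part of these cell types in the globin values was not tested.

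From 5m to 18m none of the 5 genes passed the test in either homogenate fraction. In input_TH the log2 fold changes were 0.36 for Hbb-bs, 0.36 for Hbb-bt, 0.39 for Hba-a1, 0.43 for Hba-a2 and -0.31 for Alas2, with adjusted p-values from 0.11 to 0.39. The edgeR test called 0 of 5 where it called 15.5% of all genes in either direction, 1 gene (Hba-a2) had an unadjusted p under 0.05, and DESeq2 called 0. Without mouse 191 or mouse 195, and with no filter on low counts, Hba-a1 and Hba-a2 passed as higher at 18m. In SC_TH the log2 fold changes were 0.25, -0.01, 0.47, 0.58 and 0.48 in the same order, with adjusted p-values from 0.14 to 0.99. The edgeR test called 0 of 5 against 2.17% of all genes, 2 genes (Hba-a1 and Hba-a2) had an unadjusted p under 0.05, and DESeq2 called 0. Hba-a2 passed there without mouse 195 (log2 fold change 0.77, adjusted p = 0.035), and both alpha genes passed with no filter on low counts. The 4 mice at 18m fell in the same order, 195, 196, 197 and 198 from lowest to highest, for every globin gene in both fractions.

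**Figure D2:**
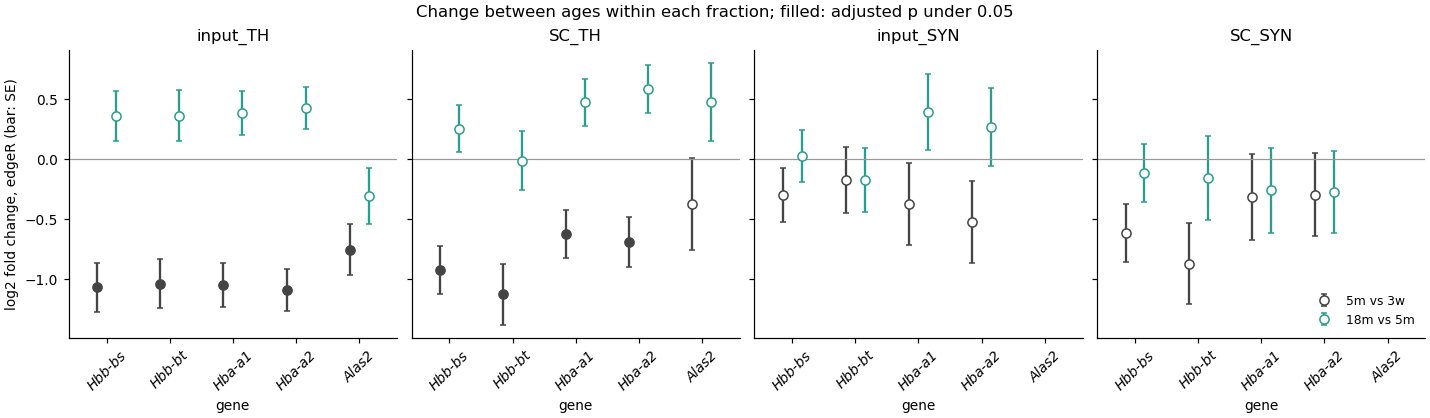
Log2 fold change of each gene from 3w to 5m and from 5m to 18m in the 4 fractions, with error bars of 1 SE from the edgeR fit and filled points for an adjusted p under 0.05. Alas2 has no point in the SYN fractions, where its counts were too low to enter the fit. The 3w to 5m values of the homogenate are all negative, and in input_TH they run from -1.09 to -0.76.

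In synaptosomes no age change passed the test for any globin gene. Hbb-bs stood in input_SYN at 13.3, 12.4, 9.03 and 13.5 CPM at 3w, at 8.71, 13.4, 6.54 and 10.9 CPM at 5m and at 9.96, 8.99, 9.145 and 12.6 CPM at 18m, with all 3 ages overlapping. From 3w to 5m in input_SYN the log2 fold changes of the 4 globin genes lay between -0.52 and -0.17. The edgeR test called 0 of 4 against 3.22% of all genes, none had an unadjusted p under 0.05 and DESeq2 called 0. From 5m to 18m in input_SYN edgeR called 0 of 4 against 0.139%, with 0 at an unadjusted p under 0.05 and 0 by DESeq2.

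In SC_SYN Hbb-bs stood at 19.6, 11.9, 17.5 and 17.9 CPM at 3w, at 12.97, 15.1, 8.41 and 6.18 CPM at 5m and at 10.4, 9.25, 9.146 and 11.8 CPM at 18m. Mouse 188 fell among the 5m mice. From 3w to 5m the log2 fold changes were -0.61 for Hbb-bs, -0.87 for Hbb-bt, -0.31 for Hba-a1 and -0.30 for Hba-a2, with adjusted p-values from 0.12 to 0.61. The edgeR test called 0 of 4 against 8.05% of all genes, 2 (Hbb-bs and Hbb-bt) had an unadjusted p under 0.05, and DESeq2 called 0. For Hbb-bt the 3w mice, at 7.5 to 12.9 CPM, did not overlap the 5m mice, at 2.34 to 7.42 CPM. From 5m to 18m edgeR called 0 of 4 against 0.014%, with 0 at an unadjusted p under 0.05 and 0 by DESeq2. The synaptosome values rest on 9 to 172 counts per gene and library, and the SE of the log2 fold changes between ages was 0.21 to 0.36, against 0.18 to 0.25 for the globin genes in the homogenate.

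To ask whether age acted alike in TH and SYN, the difference of their age changes was fitted, and of the 5 genes 0 were called by edgeR for the 3w to 5m change in input, against 0.0224% of all genes, and 0 for the 5m to 18m change, against 2.42%. In SC, 0 were called for the 3w to 5m change, against 0.0301%, and 0 for the 5m to 18m change, against 0.0%. In that last comparison edgeR called 0 of all genes, 2855 had an unadjusted p under 0.05 and DESeq2 called 272. In these 4 interactions, which Alas2 entered through its TH libraries, 0 of the 5 genes had an unadjusted p under 0.05 and DESeq2 called 0. The presence of a called change in the homogenate and its absence in synaptosomes was thus not shown to be a difference between them.

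The second comparison set synaptosomes against the homogenate of the same age. The 4 globin genes were lower in SYN than in TH at each age, in input and in SC. In input, 4 of 4 were lower at 3w, where 39.3% of all genes were lower, 4 of 4 at 5m against 40.1%, and 4 of 4 at 18m against 39.4%. In SC, 4 of 4 were lower at 3w against 32.4%, at 5m against 35.8% and at 18m against 32.2%. For each of them every SYN library lay below every TH library of its age. Their largest adjusted p was 6.2e-06, for Hbb-bt in input at 5m. This fit did not pair the libraries of a mouse, and the calls of the 4 genes were kept when they were paired.

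For Hbb-bs the log2 fold change of input_SYN over input_TH was -3.26 ± 0.25 (SE) at 3w, -2.48 ± 0.26 at 5m and -2.79 ± 0.23 at 18m. Hbb-bt was the least reduced of the globin genes in input, with -2.63, -1.75 and -2.27 at the 3 ages, and the alpha genes the most, with -3.76, -3.05 and -3.00 for Hba-a1 and -3.65, -3.03 and -3.15 for Hba-a2. Within a mouse, the CPM in input_SYN was a median of 0.0821 of that in input_TH for Hbb-bs, 0.142 for Hbb-bt, 0.0652 for Hba-a1 and 0.0643 for Hba-a2, and it was below 1 in 12 of 12 mice for each. The differences between these genes were not tested. In SC the values were closer together, from -3.51 to -3.13 for Hbb-bs, from -3.33 to -3.07 for Hbb-bt, from -3.65 to -2.94 for Hba-a1 and from -3.68 to -2.85 for Hba-a2. The matching medians within a mouse were 0.0625, 0.0662, 0.0710 and 0.0669.

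Alas2 is described by its reads alone, since a SYN library held 0 to 5 of them and it passed the filter on low counts in these fits only through its homogenate libraries. Summed over 4 mice, input_SYN held 1 Alas2 read at 3w against 220 in input_TH, a ratio of CPM of 0.0157 (95% exact interval 0.000395 to 0.0883). At 5m it was 2 reads against 133 (0.0505, interval 0.00606 to 0.186) and at 18m 5 against 107 (0.0932, interval 0.0296 to 0.224). In SC the sums were 10 against 65 at 3w (0.125, interval 0.0573 to 0.245), 5 against 97 at 5m (0.0436, interval 0.0138 to 0.105) and 8 against 185 at 18m (0.0472, interval 0.0201 to 0.0950). These intervals cover counting error only. Those of input and of SC overlapped at every age.

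Markers of vessel cells were also lower in SYN. All 12 endothelial markers were lower in SYN than in TH at each age in input and in SC, where 32.2% to 40.1% of all genes were lower. Over the 12 input_SYN libraries Emcn gave 6 reads, Ly6c1 15, Tek 20 and Tie1 30. Such markers entered the fits through their homogenate libraries, so the direction of their call followed from the filter on low counts. The count of 12 and the median below include them and are descriptive only. In input at 5m the median log2 fold change of the 12 was -4.29, and 8 of 9 mural markers were lower, against 40.1% of all genes. By edgeR 0 of 7 choroid plexus markers passed in that comparison, with 0 at an unadjusted p under 0.05 and 1 by DESeq2. The 5 nuclear RNAs were also lower, by a median of -3.19. With library totals in place of TMM factors the median of all genes moved by -0.53 to -0.65 in the 6 comparisons, and the 4 globin genes were lower in each under that setting too. The part of these cell types in the difference was not tested.

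**Figure D3:**
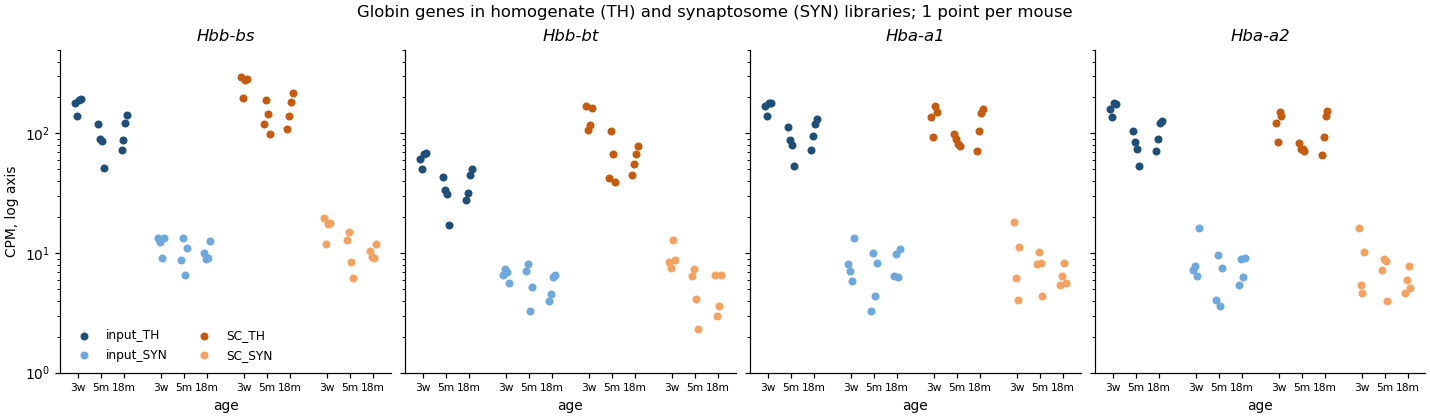
Level of the 4 globin genes (CPM, log axis) at 3w, 5m and 18m in input_TH, input_SYN, SC_TH and SC_SYN. Each point is a mouse, coloured by fraction. The synaptosome points of each gene lie below all of its homogenate points, and the globin medians within a mouse are 0.0625 to 0.142 of the homogenate.

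The third comparison asked how the genes were distributed between the ribosome pellet and its input. In the homogenate the beta genes were higher in SC than in input at every age, while no alpha gene passed. That fit did not pair the libraries of a mouse, and with pairing alpha genes also passed at 3w and 18m, as given below. Without pairing, 2 of 5 genes were higher in SC_TH at 3w, where 26.1% of all genes were higher. At 5m it was 2 of 5 against 29.9% and at 18m 2 of 5 against 31.3%. The log2 fold change of Hbb-bs was 0.65 ± 0.22 at 3w (SE, adjusted p = 0.015), 0.77 ± 0.23 at 5m (adjusted p = 0.0044) and 0.66 ± 0.22 at 18m (adjusted p = 0.010). Without mouse 187 the 3w call of Hbb-bs was lost (adjusted p = 0.072) and only Hbb-bt was left. Hbb-bt gave 1.20 ± 0.25 at 3w (adjusted p = 0.0002), 1.09 ± 0.26 at 5m (adjusted p = 0.00073) and 0.72 ± 0.25 at 18m (adjusted p = 0.014). For both, the mice of the 2 fractions did not overlap at 3w and overlapped at 5m and 18m.

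For the alpha genes and Alas2 no difference between pellet and input passed the test in the fit without pairing. Hba-a1 gave -0.23, 0.17 and 0.25 at the 3 ages and Hba-a2 -0.34, 0.04 and 0.20, while Alas2 gave -0.51, -0.15 and 0.63 (adjusted p at 18m 0.060). With the mouse as a replicate block, which uses the pairing of the 2 libraries of an animal, 4 genes were called at 3w and 4 at 18m. Of all 18416 genes tested, that setting called 9795 at 3w (4873 higher and 4922 lower) and 11936 at 18m (5870 higher and 6066 lower). At 3w Hba-a1 (-0.26, adjusted p = 0.025) and Hba-a2 (-0.37, adjusted p = 0.0027) were then lower in the pellet, and at 18m Hba-a1 (0.22, adjusted p = 0.036) and Alas2 (0.56, adjusted p = 0.020) were higher. At 5m the block left 2 genes called. Whether the cushion difference changed with age was tested as an interaction, and edgeR called 0 of 5 genes from 3w to 5m against 2.35% of all genes, and 0 of 5 from 5m to 18m against 1.78%, with 0 at an unadjusted p under 0.05 and 0 by DESeq2 in both.

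Mouse by mouse, the SC_TH level of Hbb-bs was 1.003 to 2.12 of the input_TH level and was above it in 12 of 12 mice. For Hbb-bt the ratio was 0.972 to 3.12 and was above 1 in 11 of 12 mice. Hba-a1 was above 1 in 6 mice and Hba-a2 in 4, with ranges of 0.664 to 1.47 and 0.614 to 1.32. Alas2 was above 1 in 3 of 12 mice, at 0.602 to 2.03. At 3w, 5m and 18m the mice above 1 numbered 0, 3 and 3 for Hba-a1, 0, 1 and 3 for Hba-a2 and 0, 0 and 3 for Alas2.

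In synaptosomes the pellet and its input were not told apart for any globin gene. At 3w edgeR called 0 of 4 against 18.5% of all genes, at 5m 0 of 4 against 20.0% and at 18m 0 of 4 against 12.6%, with 0 at an unadjusted p under 0.05 and 0 by DESeq2 at each age. The interaction with age gave 0 of 4 genes from 3w to 5m, against 0.0% of all genes, and 0 of 4 from 5m to 18m, against 0.0%. In these interactions 0 of the 4 genes had an unadjusted p under 0.05 and DESeq2 called 0. Over all genes edgeR called 0 in both, 474 and 393 had an unadjusted p under 0.05, and DESeq2 called 0 and 0.

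Because alpha and beta chains assemble in equal numbers, the ratio of alpha to beta reads (Hba-a1 and Hba-a2 over Hbb-bs and Hbb-bt, in counts not corrected for length) was followed in each library. In input_TH the ratio was 1.38, 1.45, 1.39 and 1.35 at 3w, 1.34, 1.41, 1.31 and 1.56 at 5m and 1.435, 1.53, 1.43 and 1.355 at 18m. In SC_TH it was 0.554, 0.581, 0.799 and 0.6425 at 3w, 1.13, 0.562, 0.731 and 1.08 at 5m and 0.893, 1.01, 1.145 and 1.05 at 18m. Every SC_TH library lay below every input_TH library, and within a mouse the ratio was lower by 0.208 to 0.873 with a median difference of -0.559. The ratio was even across ages in input_TH, while in SC_TH the 3w mice were low and the 5m mice were split, with 191 and 194 high and 192 and 193 low. In synaptosomes the ratio scattered more, from 0.4655 to 1.56 in input_SYN and from 0.285 to 1.33 in SC_SYN, and it was lower in the pellet in 7 of 12 mice and higher in 4.

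The split between the copies of a pair moved in the same fractions. Hbb-bt gave 25.1% to 27.4% of the beta reads in input_TH. In SC_TH it gave 36.1%, 34.9%, 29.6% and 36.25% at 3w, 25.9%, 35.7%, 31.5% and 28.6% at 5m and 29.0%, 28.2%, 26.6% and 26.5% at 18m, higher than in input_TH in 10 of 12 mice. In input_SYN the share ran from 28.6% to 44.8%. Hba-a2 gave 48.0% to 50.45% of the alpha reads in input_TH and 45.3% to 49.1% in SC_TH. Mice with a low alpha to beta ratio in SC_TH had a high share of Hbb-bt, as mice 187, 188, 190 and 192 show. Both values are divided by the same beta reads, so they are not independent and part of this relation is built in. Alas2 gave a mean of 8.74, 11.3 and 6.90 reads per 1000 globin reads in input_TH at 3w, 5m and 18m, and 5.255, 6.975 and 7.23 in SC_TH. Between ages, none of 28 such ratio comparisons passed an exact two-sided permutation test after Benjamini-Hochberg adjustment, and the smallest adjusted p was 0.80. The smallest raw p that 4 mice against 4 allow, 0.029, was reached by the Alas2 reads per 1000 globin reads in input_TH from 5m to 18m. Among 28 comparisons a single ratio at that p could not pass the adjustment, so these tests cannot show that a ratio was unchanged.

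Depth and nuclear RNA also differed among the SC_TH libraries. The summed level of 5 nuclear RNAs (Malat1, Neat1, Meg3, Snhg11 and Miat) in SC_TH was 15890, 16260, 12310 and 13210 CPM at 3w, 8848, 12780, 12490 and 8728 CPM at 5m and 6285, 7397, 6265 and 6582 CPM at 18m. Mice 191 and 194, whose alpha to beta ratio was high at 5m, had the lower nuclear RNA of that age. The library totals of those 4 mice were 13484631, 5992223, 8605850 and 8681012 reads. The part of nuclear RNA and of depth in the ratio was not tested.

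**Figure D4:**
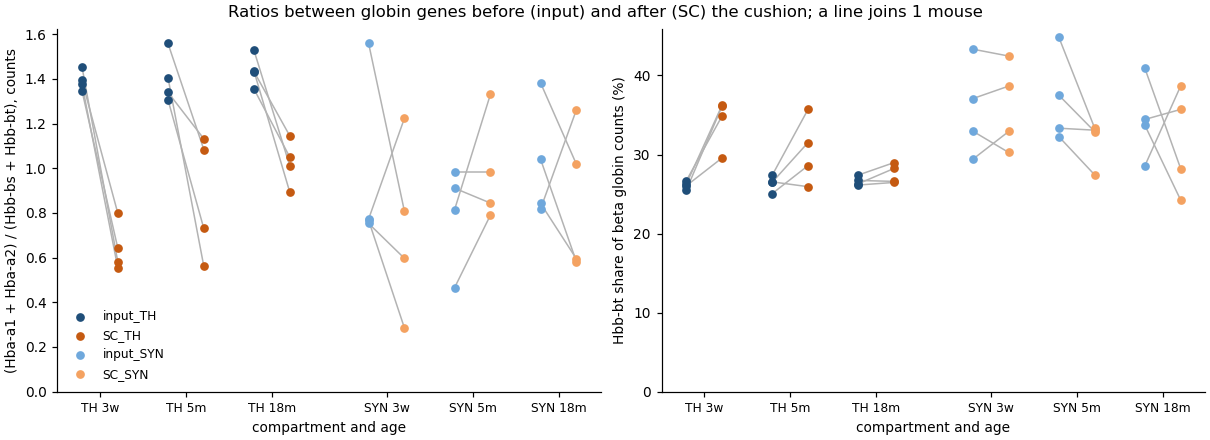
Ratios between the globin genes in each mouse before (input) and after (SC) the cushion, in TH and SYN at 3w, 5m and 18m. The left panel gives alpha over beta counts and the right panel the share of Hbb-bt in the beta counts (percent), and each line joins the libraries of a mouse. In TH the alpha to beta ratio is lower in the pellet in 12 of 12 mice, and the Hbb-bt share is higher in 10 of 12.

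Other red cell genes were read to see what accompanied the globin RNA. Genes of the red cell surface and membrane were near the limit of detection, with a summed level over 10 genes of 0.968 to 2.89 CPM in input_TH and 1.04 to 2.66 CPM in SC_TH, and none had enough counts to be tested for age. Slc4a1, the band 3 anion exchanger, gave 82 reads over the 12 input_TH libraries. Rhag and Cldn13, of the Rh complex and the erythroblast surface, gave 0 reads in input_TH and in SC_TH, which allows a level of up to 0.0228 and 0.0284 CPM. Of the erythroid regulators, Gata1 gave 1 read over input_TH, Klf1 13, Nfe2 11 and Gfi1b 0. Others gave more reads in the same libraries, among them Tal1 with 322. The beta-like genes Hbb-bh0, Hbb-bh1, Hbb-bh2 and Hbb-bh3 gave 0 reads, the embryonic beta-like gene Hbb-y 6 and the embryonic alpha gene Hba-x 1.

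Globins of other cell types were detected more readily. Cygb, which encodes cytoglobin, stood at 24.8 to 37.6 CPM in input_TH and Ngb, the neuronal neuroglobin, at 2.49 to 4.86 CPM. By edgeR 0 of these 2 genes changed from 3w to 5m in input_TH, with 0 at an unadjusted p under 0.05 and 0 by DESeq2, where the 4 hemoglobin genes fell. In SC_TH Cygb rose over that interval (log2 fold change 0.41 ± 0.10 SE, adjusted p = 0.010). Among the 7 testable erythroid regulators, most of which brain cells also express, edgeR called 0 from 3w to 5m in input_TH, with 0 at an unadjusted p under 0.05 and 0 by DESeq2.

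Of the genes of the red cell cytosol and of red cell maturation, 5 of the 9 in the table could be tested from 3w to 5m in input_TH and 2 fell, where 861 of all 18078 genes tested rose and 1275 fell. These were Bpgm, which makes the 2,3-bisphosphoglycerate that lowers oxygen affinity (-0.32 ± 0.06 SE, adjusted p = 0.0032), and Tent5c, a poly(A) polymerase (-0.55 ± 0.17 SE, adjusted p = 0.048). In SC_TH, where 1558 of 16427 genes rose and 1391 fell, 3 of 5 fell, Bpgm by 0.26, Tent5c by 0.75 and Aqp1, a water channel of red cells and of choroid plexus, by 2.19 on the log2 scale. Car1 and Hemgn, which are largely confined to erythroid cells within blood, gave 11 reads and 1 read over input_TH. Bpgm had a median of 31.0 CPM in input_TH and 35.2 CPM in input_SYN, where the globin genes were far lower than in input_TH. The medians of Tent5c were 6.52 and 3.72 CPM. Which cells gave the RNA of these 2 genes was not tested. Of 12 red cell genes that brain cells also express, 3 rose and 2 fell in input_TH, with Epb41, a protein of the membrane skeleton, among those that rose (0.28 ± 0.07 SE, adjusted p = 0.016).

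Markers of other blood cells differed in level in input_TH. The neutrophil genes S100a8 and S100a9 gave 12 and 5 reads over its 12 libraries. The platelet genes Ppbp and Pf4 reached 3.21 and 2.04 CPM, while Gp1bb, also listed for platelets, stood at 8.36 to 18.5 CPM, and at 16.7 to 44.8 CPM in input_SYN. Of 10 platelet genes, 2 could be tested from 3w to 5m in input_TH and 1 fell, Gp1bb, a subunit of the receptor for von Willebrand factor (-0.96 ± 0.10 SE, adjusted p = 1.3e-05). In that comparison 1275 of 18078 genes fell and 861 rose. Among neutrophil markers only Mmp9 could be tested, and it was not called by edgeR or DESeq2, nor at an unadjusted p under 0.05. Of the lymphocyte markers only Ighm, the heavy chain of immunoglobulin M, could be tested. It stood at 9.905 to 25.15 CPM, above Alas2 as Gp1bb did, and it rose (0.61 ± 0.16 SE, adjusted p = 0.016).

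The other genes of heme synthesis are used by all cells. Of 15 tested, 1 fell and 0 rose from 3w to 5m in input_TH, where 7.05% of all genes fell, and the median log2 fold change was -0.02. The gene that fell was Cpox, coproporphyrinogen oxidase (-0.18 ± 0.06 SE, adjusted p = 0.045), and DESeq2 called 0 of the 15. Alas1, the form of aminolevulinate synthase used outside red cells, stood at 39.9 to 47.4 CPM in input_TH against 1.69 to 6.07 CPM for Alas2. In SC_TH, where 1558 of 16427 genes rose, 2 of the 15 rose and none fell. They were Alad (0.77 ± 0.21 SE, adjusted p = 0.018) and Urod (0.43 ± 0.13 SE, adjusted p = 0.031), which act early in the pathway. From 5m to 18m in input_TH, where 1479 of 18078 genes rose, 2 rose, Cpox (0.28) and Glrx5 (0.34).

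Of the genes of heme breakdown and heme transport, 1 of 9 tested changed in input_TH from 3w to 5m, Slc48a1, a heme transporter of lysosomes (-0.40 ± 0.05 SE, adjusted p = 0.00011). In that comparison 1275 of 18078 genes fell and 861 rose. In SC_TH 4 of 9 rose and none fell, where 1558 of 16427 genes rose. They were Lrp1, a receptor for hemopexin among many ligands (0.41), Cd163, the hemoglobin and haptoglobin receptor of macrophages (1.33 ± 0.35 SE, adjusted p = 0.016), Blvrb, a biliverdin reductase (0.71), and Hmox1, the inducible heme oxygenase (0.83 ± 0.27 SE, adjusted p = 0.040). Hmox1 stood at 1.33 to 5.72 CPM and Cd163 at 0.843 to 4.005 CPM in that fraction.

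Of 12 iron genes, 3 fell and 1 rose in input_TH from 3w to 5m, where 1275 of 18078 genes fell and 861 rose. Tfrc, the transferrin receptor through which cells take up iron, fell by 0.49 (adjusted p = 0.0044), Slc40a1, the iron exporter ferroportin, fell by 0.74 (adjusted p = 0.0011), Aco1, an iron-responsive RNA-binding protein, fell by 0.39 (adjusted p = 0.00047), and Fth1, the ferritin heavy chain, rose by 0.29 (adjusted p = 0.00093) on the log2 scale. In SC_TH, where 1391 of 16427 genes fell and 1558 rose, 3 iron genes fell and 4 rose. Tfrc fell by 0.84 (adjusted p = 0.00057), Aco1 by 0.42 and Ireb2, its relative, by 0.38, and Slc39a14, a metal importer, rose by 0.35.

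The genes whose pattern was most like that of Hbb-bs were sought among 15881 genes, as a description without a test. Over the log2 CPM of the 48 libraries the nearest were the other globin genes, with Pearson correlations of 0.985 for Hbb-bt, 0.976 for Hba-a1 and 0.974 for Hba-a2. Behind them came Csrnp2 (0.969), Mapk14 (0.962), Kif3c (0.960), Mark3 (0.959), Magi1 (0.958), Prkacb (0.9575) and Mapk1ip1l (0.957), Alas2 ranked 45 (0.943), and the median of all genes was 0.637. These values share the contrast between TH and SYN libraries. Over deviations from the means of the 12 groups, which remove that contrast and age, the order began again with Hbb-bt (0.828), Hba-a1 (0.687) and Hba-a2 (0.685), ahead of Tmem64 (0.587), Tob2 (0.575), Rilpl2 (0.5565), Adamts9 (0.551), Vegfa (0.540), Arid5a (0.533) and Gas1 (0.533). The median of all genes was then 0.0123, and Alas2 ranked 216 (0.381). The values of the globin genes share reads within a pair, depth and library.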

How the data were processed

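Strand-specific, rRNA-depleted RNA libraries with UMI adaptors were sequenced single-end on 2 NovaSeq runs, and the labels do not say which library was in which run. The counts deposited by the authors are raw reads per Ensembl gene, made with bcl2fastq 2.20.0.422, TopHat2 2.1 and featureCounts counting reads without regard to strand, on GRCm38. How UMIs and multiply mapping reads were handled is not given in the sources used here, and without strand, reads of a gene and of RNA antisense to it cannot be told apart.

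The 48 libraries of 12 mice were grouped by fraction and age from the labels. Of 48526 identifiers, 48144 were in GENCODE, and the others held 0.0596% of the counts. Libraries of a group differed by more than sampling noise in all 72 pairs (chi-square per degree of freedom 1.98 to 32.2). The 28 comparisons used the edgeR 4.0.16 quasi-likelihood test (R 4.3.3) with TMM factors, filterByExpr and Benjamini-Hochberg adjustment over all genes at 0.05. Age changes were fitted within a fraction, compartment and cushion differences over the 6 groups of a library type or compartment. Alternatives were DESeq2 1.42.0, library totals in place of TMM, no filter, at least 10 counts in every library, summed copies, a single fit of 48 libraries, each mouse left out and the mouse as a replicate block. The script was tested on simulated data. Ratios were compared between ages by exact permutation.

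The 5 genes and the lists were chosen with earlier results of these data known. List genes past the threshold were named, at most 4 a list by adjusted p, as were list genes of interest for their level, and the 10 genes most correlated with Hbb-bs (mean of at least 10 counts, prior count 2). Replicate numbers are animals, so libraries of an animal are paired by the labels. Deviations of paired libraries from group means correlated with r from -0.45 to 0.43 (median 0.0957). Sequences were read from the GENCODE transcripts and from RefSeq promoters on GRCm38.p6, where all 5 genes matched. The lists held 3 names that the table lacks (Ahsp, Hbb-b1 and Hbb-b2), which were not used. Values of a few list genes are not reported here.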

Additional observations from a re-analysis of the deposited data

Results flagged for a closer look

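Of 96 groups of 4 mice examined, 4 held a mouse far from the other members of its group (gap over range above Dixon's critical value for 4 samples), and chance alone is set to give about 1 in 20. Mouse 188 had the lowest Hbb-bs level of the 3w mice in SC_TH, 198 CPM, with a gap of 0.835 of the range. Mouse 190 had the highest Hba-a2 level of the 3w mice in input_SYN, 16.3 CPM (gap 0.862), and in the same library the highest ratio of alpha to beta counts, 1.56 (gap 0.975). Mouse 194 had the lowest share of Hbb-bt in the beta counts of the 5m mice in SC_SYN, 27.4% (gap 0.927). None of the 38 interaction values tested for the 5 genes passed the threshold.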

How the results depend on the processing

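The 45 fold changes of the 5 genes that passed the test had 513 alternative values. Of these, 493 kept the call and direction, 20 lost the call and 0 turned. Of the 45 fold changes, 6 are Alas2 between compartments, which entered through its homogenate libraries. With summed copies both genes of a pair were given the value of the pair. With no filter on low counts 2 genes were called for input_TH 18m vs 5m and 2 for SC_TH 18m vs 5m, where the edgeR fit with the filter called 0. DESeq2 called 2 for SC_TH 5m vs 3w in place of 4. With at least 10 counts in every library only 3 genes were tested for input_SYN vs input_TH, and 3, 3 and 3 were called at 3w, 5m and 18m. Leaving out 1 mouse gave 0 to 2 genes called for input_TH 18m vs 5m, 2 to 4 for SC_TH 5m vs 3w, 0 to 1 for SC_TH 18m vs 5m and 1 to 2 for SC_TH vs input_TH at 3w. With the replicate block, which pairs the libraries of an animal, 4 genes were called for SC_TH vs input_TH at 3w and 4 at 18m. That setting called 9795 and 11936 of all 18416 genes there. The block changed the call of no other member.

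Values that changed sign passed no test under either setting. With summed copies the value is that of the pair, set here against that of a single copy. For SC_TH 18m vs 5m, Hbb-bt gave 0.006 with no filter, and the summed beta pair gave 0.168. The summed beta pair gave -0.048 for input_SYN 18m vs 5m and -0.042 for SC_SYN vs input_SYN at 5m, where Hbb-bs alone gave 0.027 and 0.081. For SC_TH vs input_TH at 5m, Hba-a2 gave -0.058 with library totals and -0.039 with at least 10 counts. For SC_SYN vs input_SYN at 3w, Hba-a2 gave 0.013 with library totals and 0.01 with no filter, and the summed alpha pair gave 0.042. Leaving out 1 mouse at a time, the ranges that crossed 0 were -0.174 to 0.333 for Hbb-bt in SC_TH 18m vs 5m, -0.075 to 0.16 for Hba-a2 in SC_TH vs input_TH at 5m, -0.325 to 0.007 for Hbb-bt in input_SYN 5m vs 3w and -0.114 to 0.18 for Hbb-bs in input_SYN 18m vs 5m. In SC_SYN 5m vs 3w they were -0.565 to 0.134 for Hba-a1 and -0.505 to 0.109 for Hba-a2, and in SC_SYN 18m vs 5m -0.32 to 0.093 for Hbb-bs and -0.422 to 0.083 for Hbb-bt. For SC_SYN vs input_SYN they were -0.29 to 0.313 for Hba-a1 and -0.575 to 0.174 for Hba-a2 at 3w, and -0.097 to 0.353 for Hbb-bs, -0.041 to 0.636 for Hba-a1 and -0.087 to 0.539 for Hba-a2 at 5m. The cause was not tested.

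Over all genes, the number called moved by over 1.5 times in 2 of 28 comparisons with library totals, 10 with no filter, 7 with at least 10 counts, 0 with summed copies, 9 with DESeq2, 13 in the single fit and 4 of 20 with the block. For input_TH 5m vs 3w library totals gave 1411 genes higher and 972 lower in place of 861 and 1275, and the single fit called 761 genes in place of 2136. For input_TH 18m vs 5m library totals gave 999 higher and 2062 lower in place of 1479 and 1329. Levels in CPM without mitochondrially encoded genes stayed within 1 SD in 60 of 60 groups. Precision was limited by 0 to 5 Alas2 reads per synaptosome library.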

Other observations

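Between 5m and 18m in input_TH, where no hemoglobin gene passed the test, 1329 of 18078 genes were lower. Of 12 endothelial markers 4 were lower and 0 higher, among them Pecam1, an adhesion molecule of endothelial junctions (log2 fold change -0.52 ± 0.16 SE, edgeR adjusted p = 0.044), and Slco1a4, a transporter of the blood-brain barrier (-0.51 ± 0.15 SE, adjusted p = 0.030). Of 9 mural markers 2 were lower, Rgs5 of pericytes (-0.49 ± 0.06 SE, adjusted p = 0.00043) and Myh11 of smooth muscle (-1.76 ± 0.55 SE, adjusted p = 0.039). Mouse 191 carried an endothelial sum of 465 CPM at 5m, against 298 to 312 CPM in the other 5m mice and 254 to 283 CPM at 18m, and a mural sum of 518 CPM, against 183.7 to 205 CPM in the other 5m mice and 145 to 189 CPM at 18m.

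Of 9 genes of heme breakdown and transport, 3 rose over the same interval and none fell, where 1479 of 18078 genes rose. They were Slc48a1 (0.18 ± 0.05 SE, adjusted p = 0.033), Hmox2, the constitutive heme oxygenase of neurons (0.22 ± 0.07 SE, adjusted p = 0.035), and Lrp1 (0.16 ± 0.05 SE, adjusted p = 0.045). Of the 12 iron genes 1 changed, Ireb2, an iron-responsive RNA-binding protein (-0.34 ± 0.07 SE, adjusted p = 0.0045). Cygb rose by 0.27 (adjusted p = 0.021) on the log2 scale.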
